A study of Mus musculus with 6 samples.

Results

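The genes described here are Trp53, which encodes p53, and 9 genes that p53 is known to activate, namely Mdm2, Ccng1, Bbc3, Phlda3, Eda2r, Sesn2, Trp53inp1, Zmat3 and Aen. They were taken by name from a table of 23565 genes, in which all 10 were found, and all 10 passed the filter on low counts. Cdkn1a, the p53 target that encodes the cell cycle inhibitor p21, is given beside them, since the question was whether these genes move with it. RNA was sequenced from sorted small intestinal crypt cells of mice that carry the allele HopXCreER or Lgr5eGFP-IRES-CreER, each with Rosa26LSL-tdTomato, an allele that makes the red protein tdTomato once the tamoxifen-activated recombinase CreER has acted. Cells sorted for tdTomato gave the 3 libraries called Hopx-CreER, and cells sorted for eGFP and tdTomato together gave the 3 called Lgr5-CreER. Every mouse, in both groups, had received 1 mg of tamoxifen 16 h before collection. CreER is driven by the Hopx or the Lgr5 locus, the labels give no age or strain, and there was no group without tamoxifen or without Cre.

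p53 is a transcription factor that is kept scarce by Mdm2, a ubiquitin ligase that p53 itself induces, and that accumulates after DNA damage or oncogenic stress. Its targets halt the cell cycle, trigger apoptosis, repair DNA, or feed back on p53, and in the intestine p53 and its apoptotic targets are known for the response of crypt cells to radiation. p21 is also made without p53, in cells that leave the cycle, so its RNA alone is no measure of p53 activity. A p53 response element is a pair of decamers of a known consensus, placed next to each other or a short way apart.

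The sequences around transcription starts are shown for Cdkn1a, which rose, for Phlda3 and Aen, which fell, and for Mdm2 and Ccng1, whose windows also hold a decamer. Each runs from 250 bases before to 50 bases after a start (RefSeq, GRCm38.p6), 5′ to 3′ on the gene's strand, and capitals mark every exact match to the p53 decamer consensus, which reads the same on both strands.
Cdkn1a, chr17:29090729-29091028, plus strand: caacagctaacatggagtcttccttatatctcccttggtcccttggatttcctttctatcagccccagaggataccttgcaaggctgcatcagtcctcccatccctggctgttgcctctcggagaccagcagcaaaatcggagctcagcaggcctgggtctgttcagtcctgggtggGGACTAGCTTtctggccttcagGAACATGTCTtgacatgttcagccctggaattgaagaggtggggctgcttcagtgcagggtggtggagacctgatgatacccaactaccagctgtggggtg
Ccng1, chr11:40755237-40755536, minus strand: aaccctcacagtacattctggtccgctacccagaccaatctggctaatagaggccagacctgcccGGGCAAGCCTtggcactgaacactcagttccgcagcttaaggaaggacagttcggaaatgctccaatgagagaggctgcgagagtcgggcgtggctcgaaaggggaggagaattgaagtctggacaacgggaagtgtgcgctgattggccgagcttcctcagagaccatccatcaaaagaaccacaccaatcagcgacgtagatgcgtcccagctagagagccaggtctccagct
Mdm2, chr10:117710709-117711008, minus strand: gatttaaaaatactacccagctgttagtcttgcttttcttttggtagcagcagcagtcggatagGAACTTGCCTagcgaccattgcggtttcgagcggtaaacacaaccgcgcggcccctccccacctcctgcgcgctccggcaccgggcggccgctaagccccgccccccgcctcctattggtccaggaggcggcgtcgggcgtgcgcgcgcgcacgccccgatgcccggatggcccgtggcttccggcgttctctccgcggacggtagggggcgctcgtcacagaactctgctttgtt
Aen, chr7:78895677-78895976, plus strand: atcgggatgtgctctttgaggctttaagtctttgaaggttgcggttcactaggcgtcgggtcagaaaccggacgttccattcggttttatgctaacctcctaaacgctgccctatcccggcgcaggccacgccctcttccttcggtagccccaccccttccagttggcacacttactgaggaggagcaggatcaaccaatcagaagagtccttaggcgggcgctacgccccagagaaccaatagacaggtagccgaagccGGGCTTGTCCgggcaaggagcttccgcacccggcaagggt
Phlda3, chr1:135765835-135766134, plus strand: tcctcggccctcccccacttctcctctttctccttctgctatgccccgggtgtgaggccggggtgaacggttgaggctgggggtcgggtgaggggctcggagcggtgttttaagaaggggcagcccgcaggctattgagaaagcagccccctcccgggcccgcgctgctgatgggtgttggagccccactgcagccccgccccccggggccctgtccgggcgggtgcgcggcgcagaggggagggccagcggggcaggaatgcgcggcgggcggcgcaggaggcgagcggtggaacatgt
Windows were found for 9 of the 11 genes looked up (Cdkn1a included), with more than 1 start for some, and an exact decamer lay in at least 1 window of 5 of them, the fifth being Trp53. Of all 32817 windows in the table, 8.36% held one. A pair of decamers, up to 13 bases apart and with at most 2 mismatches to the consensus, lay in the windows of Cdkn1a and Ccng1 and in 4.09% of all windows. In Cdkn1a it reads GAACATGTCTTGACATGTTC and begins 51 bases before the upstream start, which lies 2790 bases before the second annotated start, whose window held no match. In Ccng1 it reads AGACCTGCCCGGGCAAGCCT and begins 195 bases before the start. A further pair with a spacer overlapped each of these. A match describes letters only, and known elements can lie outside these windows, as that of Mdm2 does in its first intron.

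Library totals ran from 10839306 to 14570555 counts, and 1 count equalled 0.0669 to 0.0928 CPM (the count of a gene over the TMM-scaled size of its library, in the usual unit). Markers of the labelled tissue were present, and Epcam, an epithelial adhesion protein, stood at 2060 to 2420 CPM in all 6 libraries. Leukocyte markers summed to 1.99 to 5.41 CPM. Of 11 stromal markers 7 were in the table, with sums of 5.95 to 7.78 CPM in the Hopx-CreER libraries and 3.17 to 4.42 CPM in the others, mostly Pdgfrb (pericytes, 1.86 to 5.1 CPM in all 6) and Pecam1 (endothelium, 0 to 3.55 CPM), while Col1a1 and Cdh5 were at 0 in every library. Hopx RNA was not higher in the cells marked through Hopx, at 54.3 ± 9.65 CPM (SD, n = 3) against 89.8 ± 3.94 CPM in Lgr5-CreER cells. Lgr5 RNA was 41.4 ± 17.7 CPM against 107.8 ± 3.93 CPM, and the Lgr5-CreER cells alone were also gated on the Lgr5 reporter. Hopx-CreER library 3 lay apart from libraries 1 and 2, at -39.9 on the second principal component against 24.6 and 34.1. The column name of Hopx-CreER library 3 also carries a further tag after the sorting gate, which no other column has. The meaning of that tag is unknown, and whether it bears on the deviation of this library was not tested. Lgr5-CreER libraries 2 and 3 come from columns that share a number and were the most alike pair, with an SD of log2 differences of 0.258 over 8165 genes, against 0.325 to 0.587 within the groups otherwise. Their differences exceeded counting noise (12.5 per gene by chi-square, against 28.8 to 68.5 within the groups otherwise), which amplified libraries of a single mouse could do as well. The study used 3 mice of each genotype, but nothing ties a given column to a given mouse. The libraries were counted as 3 against 3, p-values measure the spread between them, and they are too small if that pair is from 1 mouse.

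Cdkn1a was far higher in the cells marked through Hopx, while none of the 10 p53 genes passed as higher and 2 passed as lower. Cdkn1a (ENSMUSG00000023067.13; chromosome 17, 29090976 to 29100727, plus strand, GRCm38 as annotated by GENCODE M21, as for all genes below) measured 100, 171 and 156 CPM in Hopx-CreER libraries 1, 2 and 3 and 20.7, 22.2 and 25.3 CPM in the 3 Lgr5-CreER ones. Every Hopx-CreER library thus lay well above every Lgr5-CreER library. The difference was 6.26-fold, a log2 fold change of 2.65 ± 0.21 (SE; edgeR quasi-likelihood adjusted p 0.000374), and it stayed between 2.49 and 2.86 when any 1 library was left out. Of the 10 p53 genes, 0 passed as higher, where 9.45% of all 12439 genes tested did, and 2 passed as lower, where 3.3% did. At an unadjusted p under 0.05 the counts were also 0 and 2, where 3402 of all 12439 genes passed in either direction. By DESeq2 and by limma-voom the counts were again 0 and 2. The median log2 fold change was -0.22 over the 10 genes and -0.033 over all genes tested. Of the 10, 2 were positive, where 47.2% of all genes tested were. Groups did not overlap for 2 genes, both lower, against 34.9% of all genes tested, made up of 18.8% higher and 16.2% lower. Each library is bulk RNA, so fewer cells of a type and less RNA per cell cannot be told apart, and genotype and sorting gate cannot be told apart either.

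**Figure D1:**
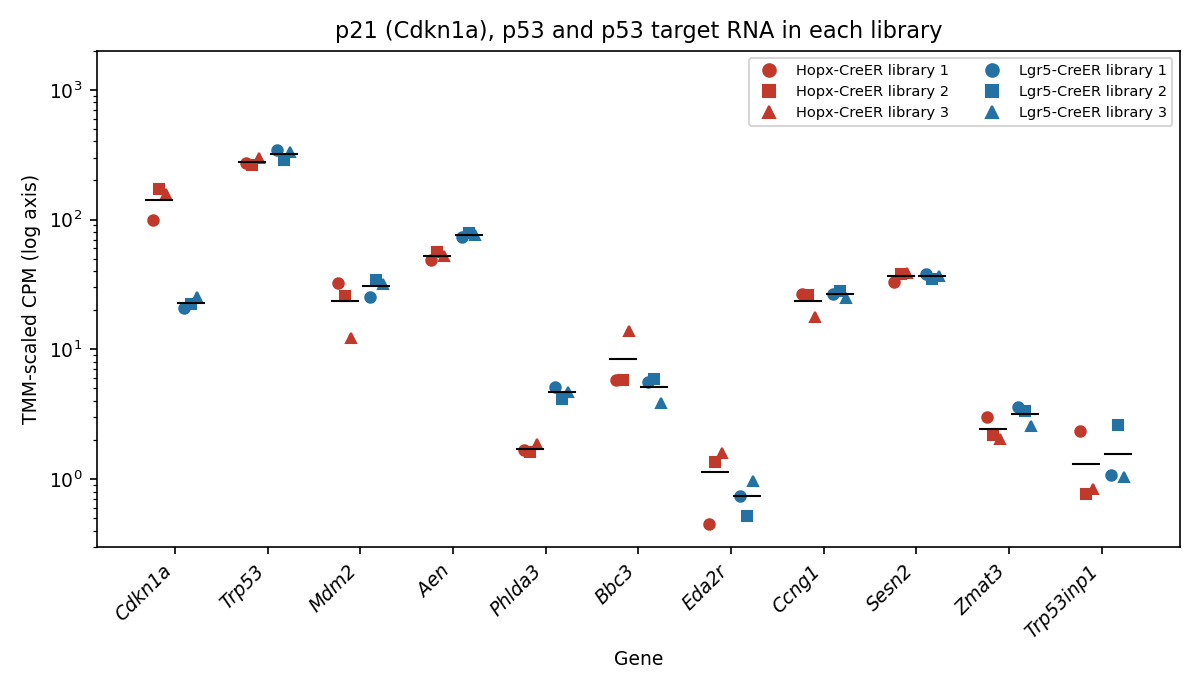
TMM-scaled CPM (log axis) of Cdkn1a and the 10 p53 genes in each library. Points are single libraries, red for Hopx-CreER and blue for Lgr5-CreER, shaped by library number, and black lines are group means. Cdkn1a separates upward in Hopx-CreER cells, Aen and Phlda3 separate downward, and the other genes overlap.

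Trp53 itself was the most abundant of the 10 genes and did not pass the test between the groups. Trp53 (ENSMUSG00000059552.13; chromosome 11, 69580359 to 69591873, plus strand) measured 271, 262 and 296 CPM in the Hopx-CreER libraries against 344, 289 and 330 CPM in the 3 Lgr5-CreER ones. The groups overlapped, since Hopx-CreER library 3 lay above Lgr5-CreER library 2. The log2 fold change was -0.22 ± 0.11 (SE; 95% interval -0.46 to 0.03; edgeR adjusted p 0.238). It passed as lower with offsets for transcript GC content (log2 fold change -0.33, edgeR adjusted p 0.0421). p53 is controlled mostly through protein stability, which RNA does not show.

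Per kilobase of annotated exon, the Lgr5-CreER means ran from Trp53 (79.3 CPM per kb) through Aen (13.1), Sesn2 (10.6), Ccng1 (7.57), Mdm2 (5.99), Phlda3 (2.99), Bbc3 (2.41) and Zmat3 (0.278) to Trp53inp1 (0.242 CPM per kb) and Eda2r (0.126 CPM per kb). Cdkn1a stood at 6.41 CPM per kb there, between Ccng1 and Mdm2, and its libraries overlapped with those of both. In Hopx-CreER cells its level was 40.1 CPM per kb, next below Trp53 (68.3 CPM per kb) and above every library of Sesn2 (9.5 to 11.2 CPM per kb). Below Sesn2 the Hopx-CreER means were Aen (9.06 CPM per kb), Ccng1 (6.66), Mdm2 (4.61), Bbc3 (3.98), Phlda3 (1.09), Zmat3 (0.211), Trp53inp1 (0.202) and Eda2r (0.191 CPM per kb), so that Phlda3 came after Bbc3 rather than before it. In that order Sesn2 overlapped with Aen, Ccng1 with Mdm2, Mdm2 with Bbc3, Zmat3 with Trp53inp1, and Trp53inp1 with Eda2r. Neighbours in the Lgr5-CreER order whose libraries overlapped were Phlda3 with Bbc3, Zmat3 with Trp53inp1, and Trp53inp1 with Eda2r.

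Mdm2 and Ccng1, both of which feed back on p53, did not pass. Mdm2 (ENSMUSG00000020184.14; chromosome 10, 117688875 to 117710758, minus strand), the ligase that marks p53 for degradation, measured 32.4, 25.6 and 12.3 CPM in the Hopx-CreER libraries against 25.2, 34.4 and 31.9 CPM in the 3 Lgr5-CreER ones. Hopx-CreER library 3 was the lowest of the 6, and the other 5 overlapped. The log2 fold change of Mdm2 was -0.37 ± 0.31 (SE; 95% interval -1.08 to 0.33; edgeR adjusted p 0.482), and -0.08 without Hopx-CreER library 3.
Ccng1 (ENSMUSG00000020326.7; chromosome 11, 40748552 to 40755311, minus strand) encodes cyclin G1, which brings the phosphatase PP2A to Mdm2. It measured 26.6, 26 and 17.6 CPM in the Hopx-CreER libraries against 26.8, 28.1 and 24.9 CPM in the 3 Lgr5-CreER ones. Here too Hopx-CreER library 3 was the lowest, and libraries 1 and 2 lay within the Lgr5-CreER range. The log2 fold change of Ccng1 was -0.18 ± 0.20 (SE; 95% interval -0.64 to 0.27; edgeR adjusted p 0.598), and -0.03 without Hopx-CreER library 3.

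Among the genes of cell death, Aen fell and Bbc3 and Eda2r did not pass. Aen (ENSMUSG00000030609.18; chromosome 7, 78895854 to 78911209, plus strand), a nuclease that takes part in DNA breakdown during apoptosis, measured 49, 55.9 and 52.8 CPM in the Hopx-CreER libraries against 73.4, 78.1 and 75.9 CPM in the 3 Lgr5-CreER ones. The 2 groups were tight and did not overlap. Aen was 1.44-fold higher in Lgr5-CreER cells, a log2 fold change of -0.53 ± 0.12 (SE; edgeR adjusted p 0.0203). The size held at -0.57 to -0.47 when 1 library was left out, but the call ended without Hopx-CreER library 1 (edgeR adjusted p 0.0623) or without Lgr5-CreER library 1, 2 or 3 (0.0591, 0.0958 and 0.082).
Bbc3 (ENSMUSG00000002083.13; chromosome 7, 16308393 to 16318205, plus strand) encodes PUMA, the BH3-only protein through which p53 kills crypt cells after irradiation. It measured 5.8, 5.75 and 13.8 CPM in the Hopx-CreER libraries against 5.62, 5.87 and 3.85 CPM in the 3 Lgr5-CreER ones. Hopx-CreER library 3 alone stood above the rest, while libraries 1 and 2 lay within the Lgr5-CreER range. The log2 fold change of Bbc3 was 0.72 ± 0.40 (SE; 95% interval -0.18 to 1.63; edgeR adjusted p 0.283), and 0.16 without Hopx-CreER library 3.
Eda2r (ENSMUSG00000034457.10; chromosome X, 97333840 to 97377216, minus strand), the receptor of ectodysplasin A2, was near the floor, with 6, 16 and 17 counts in the Hopx-CreER libraries and 11, 6 and 14 counts in the Lgr5-CreER libraries. Its groups overlapped, and its log2 fold change of 0.57 ± 0.56 (SE; edgeR adjusted p 0.545) had a 95% interval of -0.68 to 1.83.

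Phlda3, a repressor of the kinase Akt, showed the largest fall of the 10. Phlda3 (ENSMUSG00000041801.5; chromosome 1, 135766119 to 135769136, plus strand) measured 1.66, 1.61 and 1.86 CPM in the Hopx-CreER libraries, from 22, 19 and 20 counts, and 5.15, 4.15 and 4.68 CPM in the 3 Lgr5-CreER ones, from 77, 48 and 68 counts. All Hopx-CreER libraries lay below all Lgr5-CreER libraries, library 3 included. Phlda3 was 2.73-fold higher in Lgr5-CreER cells, a log2 fold change of -1.45 ± 0.32 (SE; edgeR adjusted p 0.0187). Its size held at -1.53 to -1.37 when 1 library was left out, but the call ended without Hopx-CreER library 1 or 2 (edgeR adjusted p 0.0545 and 0.0578) or without Lgr5-CreER library 1, 2 or 3 (0.0725, 0.0565 and 0.0729). Phlda3 and Aen both lost their calls when the pair of Lgr5-CreER columns with a common number was summed (edgeR adjusted p 0.0559 and 0.0803), and leaving out a library or summing columns also costs residual degrees of freedom.

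**Figure D2:**
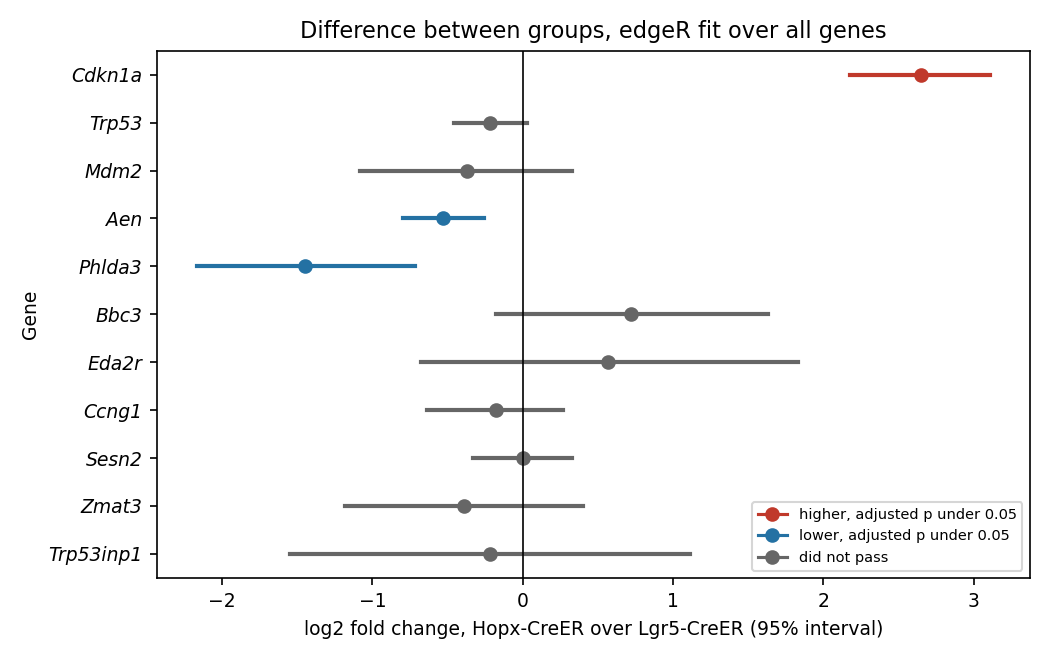
Log2 fold change (positive is higher in Hopx-CreER cells) of Cdkn1a and the 10 p53 genes, with points for the edgeR estimate and bars for its 95% interval from 3 against 3 libraries. Red marks a gene that passed as higher, blue as lower and grey as not passed. The interval of Cdkn1a (2.18 to 3.11) lies above that of every other gene, of which Eda2r reaches highest (1.83).

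The genes of metabolism, RNA control and p53 modification did not pass. Sesn2 (ENSMUSG00000028893.8; chromosome 4, 132492032 to 132510501, minus strand), a stress protein that restrains mTORC1, measured 33, 38.2 and 38.9 CPM in the Hopx-CreER libraries against 38.1, 35.1 and 37 CPM in the 3 Lgr5-CreER ones. All Lgr5-CreER values lay inside the Hopx-CreER range, the log2 fold change of Sesn2 was 0.00 ± 0.15 (SE), and the 95% interval of its log2 fold change (-0.33 to 0.33; edgeR adjusted p 0.993) was among the narrower ones.
Zmat3 (ENSMUSG00000027663.12; chromosome 3, 32334792 to 32366014, minus strand), a zinc finger RNA-binding protein, measured 3.01, 2.2 and 2.04 CPM in the Hopx-CreER libraries against 3.61, 3.37 and 2.55 CPM in the 3 Lgr5-CreER ones. Hopx-CreER library 1 lay inside the Lgr5-CreER range, and the log2 fold change of Zmat3 was -0.39 ± 0.35 (SE; 95% interval -1.18 to 0.40; edgeR adjusted p 0.512).
Trp53inp1 (ENSMUSG00000028211.11; chromosome 4, 11156431 to 11174379, plus strand), a nuclear protein that promotes p53 phosphorylation, had 31, 9 and 9 counts in the Hopx-CreER libraries and 16, 30 and 15 counts in the Lgr5-CreER libraries. Library 1 stood high among the Hopx-CreER libraries and library 2 among the Lgr5-CreER libraries, and the log2 fold change of Trp53inp1, -0.22 ± 0.59 (SE; 95% interval -1.55 to 1.11; edgeR adjusted p 0.834), has no settled sign. The intervals of Trp53inp1, Eda2r, Bbc3, Mdm2 and Zmat3 each reach past 1 log2 unit in at least 1 direction, so a difference of that size could not be told from none in these libraries.

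Since the low Mdm2 and Ccng1 and the high Bbc3 values come from Hopx-CreER library 3, the GC content of transcripts is given beside them. Over 12426 genes, the deviation of that library from Hopx-CreER libraries 1 and 2 was higher for genes of higher GC content (Spearman rho 0.473, across genes, which are not independent). The longest transcripts of Mdm2 and Ccng1 hold 46.2% and 40.8% GC, below the median of the tested genes, and that of Bbc3 holds 65.2%. With GC offsets the log2 fold changes were -0.28 for Mdm2, 0.05 for Ccng1 and 0.51 for Bbc3, and none passed. Phlda3 and Aen (62.6% and 51.6% GC) kept their calls with these offsets, at -1.64 and -0.59, as did Cdkn1a at 2.49.

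The same rise of Cdkn1a can be read within each library, with no scaling factor, as its counts per count of each p53 gene. These ratios were higher in all 3 Hopx-CreER libraries than in any Lgr5-CreER library for 10 of 10 genes, as they were for 93.6% of the 12438 other genes tested, so the separation restates the rise of Cdkn1a and says nothing particular of the 10. The folds ran from 3.99 (Bbc3) to 16.7 (Phlda3). For Mdm2 the ratio was 3.1, 6.69 and 12.6 in the Hopx-CreER libraries and 0.824, 0.646 and 0.795 in the Lgr5-CreER libraries, so that Cdkn1a went from fewer counts than Mdm2 to more. For Trp53 it was 0.371, 0.654 and 0.527 against 0.0603, 0.0769 and 0.0768. By exact permutation, two-sided, each of the 10 ratios had p = 0.1, the smallest that 3 against 3 allows, and 0.1 after adjustment over the 10, which share the Cdkn1a counts. Within the Hopx-CreER group, Cdkn1a was lowest in library 1 (100 CPM) and highest in library 2 (171 CPM). Aen had its lowest and highest values in those same libraries (49 and 55.9 CPM). Sesn2 and Eda2r were also lowest in library 1 but highest in library 3. Trp53, Bbc3 and Phlda3 were lowest in library 2 and highest in library 3, whereas Mdm2, Ccng1, Zmat3 and Trp53inp1 were highest in library 1.

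**Figure D3:**
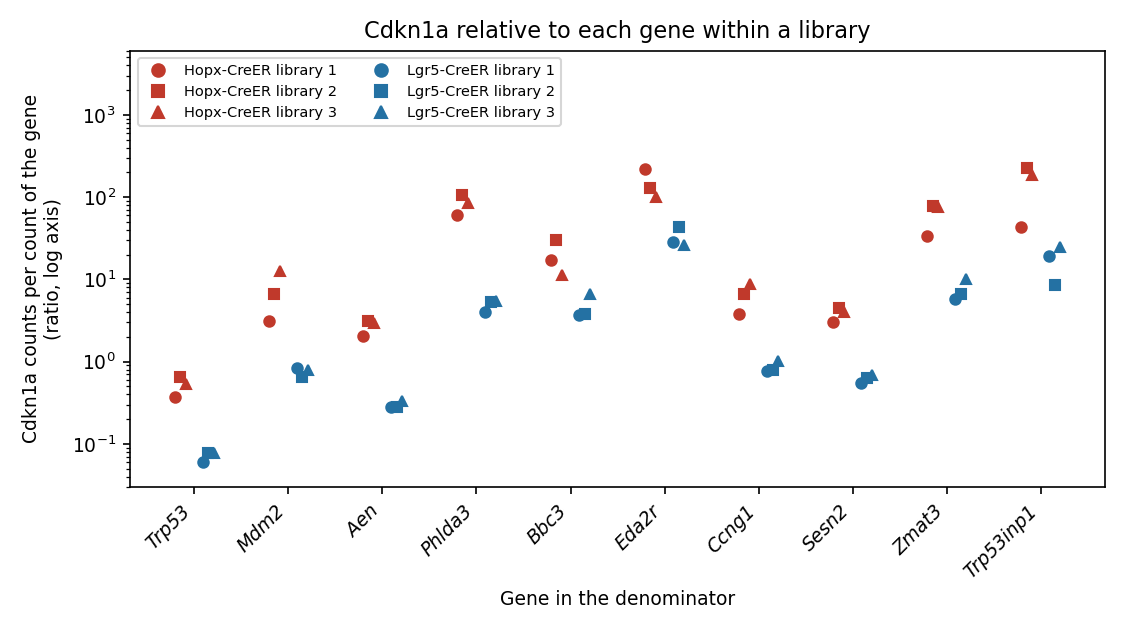
Counts of Cdkn1a per count of each p53 gene (log axis) within each library, red for Hopx-CreER and blue for Lgr5-CreER, shaped by library number. The red points lie above the blue ones for all 10 genes, as for 93.6% of the other genes tested, since every ratio shares the Cdkn1a counts. The closest approach is for Bbc3 (11.3 against 6.57) and for Trp53inp1 (43 against 24.5).

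Other p53 targets went both ways, and those that passed were mostly higher in Hopx-CreER cells. Of 55 further targets in 5 lists, 53 were tested, of which 12 were higher (22.6%, where 9.45% of all genes were), 1 was lower (1.89%, where 3.3% were) and 40 did not pass. Their median log2 fold change was 0.07, and 29 of the 53 were positive, where 47.2% of all genes tested were. The lists were chosen with earlier results of these data known, and the part of that choice in the shares was not tested. The count of higher genes over these targets and the 3 further pathway lists below, which add none to it, fell to 5 when Lgr5-CreER library 2 was left out and to 7 when library 3 was. Calls over all genes, in either direction, fell from 1586 to 723 and 882 in those fits.

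The targets of cell cycle arrest had the highest median of the 5 lists of targets. Of 9 tested, 4 were higher (9.45% of all genes were), 0 were lower (3.3% of all genes were) and 5 did not pass. The median log2 fold change was 0.78. Btg2, an antiproliferative factor, measured 416, 408 and 423 CPM in the Hopx-CreER libraries against 198, 169 and 159 CPM in the 3 Lgr5-CreER ones, a rise of 1.25 ± 0.11 (SE, log2; edgeR adjusted p 0.000512) that held without any 1 library. Plk3, a stress-responsive kinase, rose by 2.30 ± 0.48 (edgeR adjusted p 0.0137), with 65.8, 26.5 and 134 CPM in the Hopx-CreER libraries against 14.2 to 16.7 CPM in the 3 Lgr5-CreER ones. Gadd45a, a growth arrest protein, rose by 1.02 ± 0.19 (edgeR adjusted p 0.00933), and Sfn, the epithelial 14-3-3 protein, by 0.78 ± 0.16 (edgeR adjusted p 0.0149). The count of 4 became 1, with Btg2 alone, once Lgr5-CreER library 2 was left out, and 2 once library 3 was. Calls over all genes fell from 1586 to 723 and 882 in those fits. By limma-voom 3 of the 9 arrest targets passed, and by DESeq2 6.

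Btg2, Plk3 and Gadd45a are also known as genes of the early response to stress and tissue handling, so the immediate early and heat shock list is given beside them. Of its 10 members 8 were higher in Hopx-CreER cells, where 9.45% of all genes tested were. Its summed level was 4650 to 6480 CPM against 1640 to 3370 CPM. The heat shock genes Hspa1a and Hspa1b were those that did not pass. Atf3, a stress-induced transcription factor named after its values were seen, averaged 315 CPM against 54.9 CPM, a rise of 2.52 ± 0.42 (SE, log2; edgeR adjusted p 0.0054). The part of this response in the rises of Cdkn1a and the other targets was not tested.

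Few apoptotic targets passed, and they went both ways. Of 12 tested, 2 were higher (9.45% of all genes were), 1 was lower (3.3% of all genes were) and 9 did not pass. The median log2 fold change was 0.03 (-0.06 without Hopx-CreER library 3, -0.08 with GC offsets). Fas, the death receptor, averaged 8.41 ± 1.25 CPM against 2.55 ± 1.73 CPM (SD, n = 3), a rise of 1.71 ± 0.45 (SE, log2; edgeR adjusted p 0.0361), and Perp, a desmosomal protein that p53 induces, rose by 0.46 ± 0.11 (edgeR adjusted p 0.0216). Trp53i11, a p53-induced membrane protein, fell by 0.78 ± 0.19 (edgeR adjusted p 0.0295). Bax, the pore-forming death effector, named here after its values were seen, averaged 54.6 CPM against 52.7 CPM (log2 fold change 0.05 ± 0.15, edgeR adjusted p 0.848). The 2 higher calls became 1 without Hopx-CreER library 1 or Lgr5-CreER library 3, and 0 without Hopx-CreER library 2 or Lgr5-CreER library 1 or 2. The lower call ended without any of the Lgr5-CreER libraries and became 2 without Hopx-CreER library 1.

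DNA repair targets did not pass, and metabolic targets passed at about the share of all genes. Of 8 repair and nucleotide supply genes tested, 0 passed by edgeR, DESeq2 or limma-voom. By edgeR 9.45% of all genes were higher and 3.3% were lower. At an unadjusted p under 0.05, 3 of the 8 were lower, where 3402 of all 12439 genes passed in either direction. The median log2 fold change of the list was -0.25. Polh, a polymerase that copies past damage, averaged 3.13 CPM against 6.72 CPM (log2 fold change -1.09 ± 0.40, edgeR adjusted p 0.112), and Ddb2, a sensor of ultraviolet damage, 15.9 CPM against 22.4 CPM (-0.50 ± 0.19, edgeR adjusted p 0.132). Of 10 metabolic targets tested, Gpx1 alone was higher, near the 9.45% of all genes, and 0 were lower. Their median was 0.08 (-0.04 with GC offsets). Gpx1, a glutathione peroxidase, measured 1630, 1690 and 2160 CPM in the Hopx-CreER libraries against 1010, 897 and 1040 CPM in the 3 Lgr5-CreER ones, a rise of 0.89 ± 0.14 (SE, log2; edgeR adjusted p 0.00374). Dcxr, a carbonyl reductase, had a log2 fold change of 0.51 ± 0.20 (edgeR adjusted p 0.139), and it passed without Hopx-CreER library 1 (0.69, edgeR adjusted p 0.0449), which made the count 2.

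Of 14 remaining targets, 5 were higher (9.45% of all genes were), 0 were lower (3.3% of all genes were) and 9 did not pass. Their median was 0.15. Cgref1, a secreted growth regulator with EF hands, rose by 1.36 ± 0.21 (SE, log2; edgeR adjusted p 0.0037), Sertad1, a cofactor of E2F and CDK4, by 1.28 ± 0.23 (0.00692), and Dglucy, a mitochondrial D-glutamate cyclase, by 0.72 ± 0.12 (0.00537). These kept their calls in all 6 fits that left out 1 library. Epha2, an ephrin receptor, rose by 1.15 ± 0.27 (edgeR adjusted p 0.0243) and kept its call in 2 of the 6. Triap1, an inhibitor of apoptosis, rose by 0.48 ± 0.14 (edgeR adjusted p 0.0489) and kept it in 0 of the 6, at adjusted p of 0.0578 to 0.199, and it also missed the threshold with other scaling factors and by limma-voom. The count of 5 was 3 without Hopx-CreER library 1, Lgr5-CreER library 2 or Lgr5-CreER library 3.

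**Figure D4:**
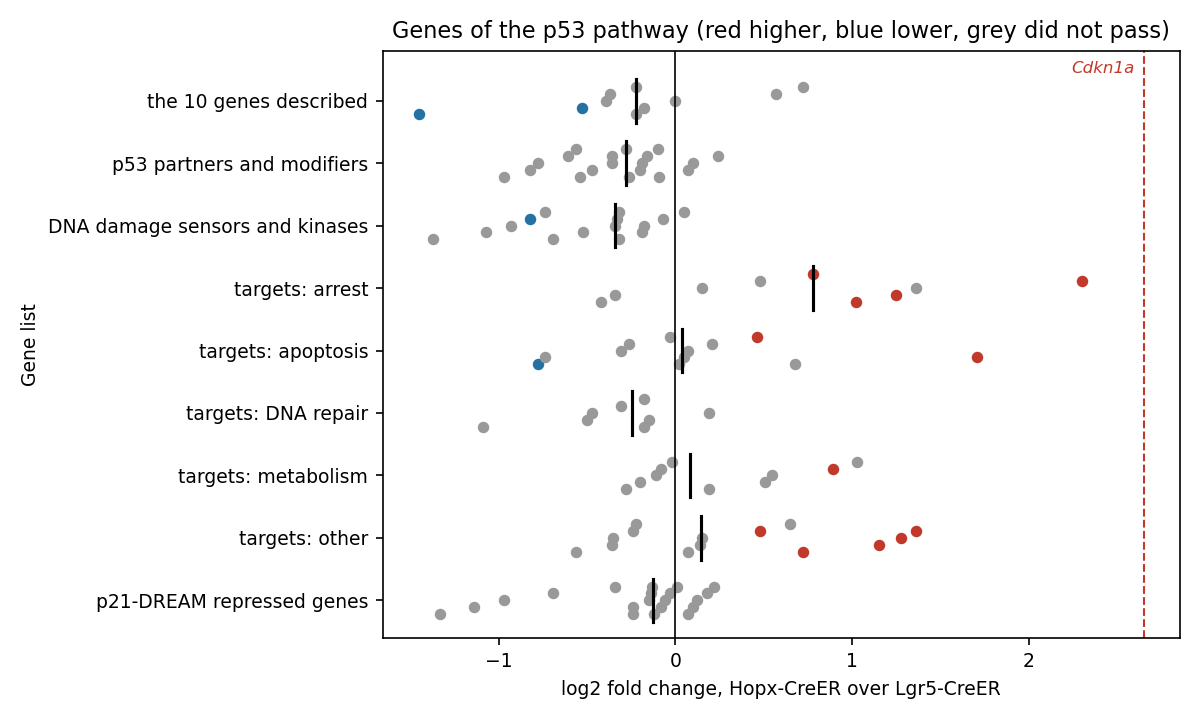
Log2 fold change (positive is higher in Hopx-CreER cells) of every tested gene in the p53 pathway lists, with red for higher, blue for lower and grey for not passed. Black bars are list medians and the dashed line is Cdkn1a. The 10 p53 genes have a median of -0.22 and the arrest targets one of 0.78, and no gene shown reaches Cdkn1a at 2.65.

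Upstream of p53, partners and modifiers did not pass and 1 damage sensor was called lower. Over all genes tested 3.3% were called lower, so these counts are close to the background. Of 19 partners and modifiers tested, 0 passed by edgeR or limma-voom and 2 were lower by DESeq2. At an unadjusted p under 0.05, 3 were lower, where 3402 of all 12439 genes passed in either direction. The median log2 fold change of the 19 was -0.28. Hopx-CreER library 3 lay lowest for most of these too. Without it the median was -0.18, with 18 of 19 negative, where 6517 of all 12439 genes were. Trp53bp1, a protein of double-strand break repair, averaged 22.2 CPM against 39.3 CPM (log2 fold change -0.82 ± 0.26, edgeR adjusted p 0.0717; 0.0281 without Hopx-CreER library 1, 0.0228 with no filter on low counts), and Ep300, an acetyltransferase of p53, 11.4 CPM against 19.7 CPM (-0.78 ± 0.26, edgeR adjusted p 0.0804). Cdkn2a, which encodes the Mdm2 inhibitor Arf and is also named after its values were seen, had 1 count in all 6 libraries, in an Lgr5-CreER library. Of 15 damage sensors and kinases tested, 14 had negative values, where 6569 of all 12439 genes did, and the median was -0.34. Without Hopx-CreER library 3, whose values lay lowest for most of them, 13 were negative and the median was -0.35, and with GC offsets they were 14 and -0.36. Mdc1, a scaffold at broken DNA, fell by 0.82 ± 0.22 (SE, log2; edgeR adjusted p 0.0403), from 15.3 ± 0.482 CPM in Lgr5-CreER cells to 8.65 ± 1.12 CPM (SD, n = 3). Mdc1 was not called with no filter on low counts (0.0531), nor after removal of Hopx-CreER library 2 (0.11) or Lgr5-CreER library 1, 2 or 3 (0.122, 0.129 and 0.123). Prkdc, the catalytic subunit of DNA-PK, had a log2 fold change of -1.37 ± 0.48 (edgeR adjusted p 0.0975).

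Genes known to be held down through p21 and the DREAM complex gave no call, which is close to the background. Of 20 tested, 0 passed by edgeR, DESeq2 or limma-voom, where 3.3% of all genes were lower by edgeR. At an unadjusted p under 0.05, 3 were lower, where 3402 of all 12439 genes passed in either direction. The median log2 fold change was -0.12 against -0.033 over all genes. Mki67, a marker of cycling cells, averaged 1.08 CPM against 2.75 CPM (log2 fold change -1.33 ± 0.41, edgeR adjusted p 0.0642), and Mcm5, a helicase subunit, 424 CPM against 537 CPM (-0.34 ± 0.14, edgeR adjusted p 0.14). Mcm5 passed as lower without Hopx-CreER library 3 (-0.45, edgeR adjusted p 0.0421), which made the count 1, as did scaling by library totals alone (0.0424) and GC offsets (0.0362). Cdk1, the mitotic kinase, named after its values were seen, averaged 203 CPM against 189 CPM (log2 fold change 0.10 ± 0.10, edgeR adjusted p 0.545).

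RNA of cell type markers differed between the groups too. Paneth cell markers were higher in Hopx-CreER cells for 10 of 10 (summed 15000 to 33000 CPM against 1670 to 3250 CPM), goblet markers for 8 of 10 (7150 to 10700 against 2090 to 2780 CPM) and enteroendocrine markers for 11 of 12 (3360 to 8780 against 194 to 321 CPM). Tuft markers were higher for 8 of 10 (293 to 1240 against 135 to 206 CPM) and enterocyte markers for 10 of 12 (2040 to 4310 against 828 to 1110 CPM). Lgr5 stem cell markers were lower for 11 of 12 (2990 to 4850 against 10100 to 10600 CPM). By the same test 9.45% of all genes tested were higher and 3.3% were lower. The marker values are bulk levels and do not count cells. The part of these cell types in the rise of Cdkn1a and in the falls of Phlda3 and Aen was not tested.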

How the data were processed

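The authors deposited 1 table of raw counts, whole numbers per versioned mouse Ensembl gene for 6 libraries, with no normalization. Per the labels' protocols, cells were sorted into TRIzol LS and libraries made with SMART-Seq v4 and Nextera XT, which do not mark strand. The names kallisto, edgeR and GRCh38 appear, per the submitters' processing notes. GRCh38 is a human build while the identifiers are mouse, and the steps that made the counts were not given in the sources used here. Columns name the sorting gate, which the series description ties to the genotype, but no replicate number. Library numbers follow column order and only name a library.

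GENCODE M21 (GRCm38) matched 23479 identifiers. No exon of the 10 p53 genes overlaps an exon of another gene in that annotation, and 7.68% of the Cdkn1a exon bases overlap an unlisted gene on the opposite strand. Groups were compared in R 4.3.3 with the edgeR 4.0.16 quasi-likelihood F-test, TMM factors and filterByExpr at its defaults. P-values were adjusted by Benjamini-Hochberg over 12439 genes, with a threshold of 0.05. A positive log2 fold change means more RNA in Hopx-CreER cells, and SEs come from the F statistic. CPM per kb uses the union of annotated exons. The procedure was tested on simulated data, in which most small changes, and most changes of genes with few counts, were missed, so not passing does not show that a gene did not differ. False calls among the simulated calls ran above the threshold. Alternatives were RLE and upper quartile factors, library totals alone, DESeq2 1.42.0, limma-voom (3.58.1), other filters, GC offsets, leaving out each library, and summing the pair of Lgr5-CreER columns with a common number, the last also with Hopx-CreER library 3 left out, which was added after the data were seen.

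The members and lists were chosen with earlier results of these data known. Named genes are the 10 members, Cdkn1a, the called genes of each pathway list and, where fewer than 2 were called, up to the 2 lowest p-values among genes averaging 1 CPM or more. Bax, Cdk1, Atf3, Cdkn2a and the single marker and heat shock genes given with values or by name were picked with their values in view. Reads were amplified and carry no molecular identifiers, so counts are not independent molecules.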

Additional observations from a re-analysis of the deposited data

How the results depend on the processing

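No paired analysis was possible because the count columns carry no replicate number that ties them to the numbered labels. None of the 10 p53 genes passed as higher in any of the 16 alternatives, and Cdkn1a passed as higher in all 16, with log2 fold changes of 2.49 to 2.86. Of the 10, 2 were lower, within 0 to 2 when 1 library was left out, 0 with the shared-number columns summed and 3 with GC offsets. Phlda3 and Aen kept their direction in all 16.

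Over all genes, 1176 were higher and 410 lower in Hopx-CreER cells, 606 to 1275 and 117 to 593 without 1 library. With library totals alone 938 were higher and 729 lower. Lower genes numbered 694 by DESeq2 and 701 with GC offsets, and 659 were higher and 131 lower with the shared columns summed. Library totals alone moved the median log2 fold change of all genes from -0.033 to -0.147. Of the 107 genes tested in the 8 pathway lists, 12 were higher (11.2%, where 9.45% of all genes were) and 2 lower (1.87%, where 3.3% were). Without 1 library, 5 to 13 of the pathway genes were higher and 0 to 4 lower. Lower ones numbered 4 by DESeq2 and 6 with GC offsets, 7 were higher and 0 lower with the shared columns summed, and 1 was lower with Hopx-CreER library 3 also left out.

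Signs reversed only for genes that did not pass. Ccng1 was 0.05 with GC offsets. Sesn2, at 0.00 with all libraries, ranged from -0.06 to 0.09 without 1 library. It was 0.09 without Hopx-CreER library 1 and 0.02 without Lgr5-CreER library 1. Without Lgr5-CreER library 3, or with a filter of 1 CPM in 3 libraries, it was 0. Over all 16 alternatives the lowest value of Sesn2 was -0.22. Trp53inp1 ranged from -0.94 to 0.33 without 1 library. It was 0.04 with GC offsets, and 0.05, 0 and 0.33 without Hopx-CreER library 2, Hopx-CreER library 3 and Lgr5-CreER library 2. With shared columns summed and Hopx-CreER library 3 left out it was 0.14. Apart from fewer libraries under leave-out and summing, the cause was not tested. Depth limits Eda2r, Trp53inp1, Zmat3 and Phlda3, with 6 to 77 counts a library.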
